A study of Homo sapiens with 9 samples.

Results

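The 8 genes described here encode a chain of signalling proteins that receptor kinases such as ALK are known to feed. They are the class I PI3K catalytic subunits *PIK3CA*, *PIK3CB* and *PIK3CD*, the regulatory subunit *PIK3R1*, the kinases *AKT1* and *AKT2*, the phospholipase *PLCG1* and the protein kinase C gene *PRKCA*. They were chosen by symbol, as 8 of the 26364 gene names in the count table. RNA-seq was done in A549, a human lung adenocarcinoma cell line, in 9 libraries that fall into 4 groups. The control group was wild-type A549 (2 libraries). The *LA* group carried guides against *LOC388942* and *ALK* (2 libraries), which were designed to join an intergenic stretch by *LOC388942* to *ALK* in the *LOC388942-ALK* (*LA*) fusion. The sgScr group carried the same guides and a scramble guide (3 libraries). The sg*FOS* group carried the same guides and guides against *FOS* (2 libraries), the gene of an AP-1 transcription factor subunit. According to the methods, fusion cells came from A549 cells with Cas9 and were grown from single cells. The labels do not say which clone each library came from, so a clone and a genotype cannot be told apart. They also do not say that replicates were separate cultures, and p-values then measure only the spread between these libraries.

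A receptor kinase that has been switched on recruits PI3K and PLC-gamma to its tail. Class I PI3K is a pair of a regulatory and a catalytic subunit, and it phosphorylates the membrane lipid PIP2 to PIP3. PIP3 draws AKT to the membrane, where PDPK1 and the mTORC2 complex phosphorylate it, and AKT then acts on growth, survival and metabolism. PLC-gamma instead cleaves PIP2 into IP3, which releases calcium, and diacylglycerol, which with calcium activates PRKCA. These steps are set by phosphorylation and lipids, which RNA counts do not show. In lung adenocarcinoma the pathway is best known for activating mutations of *PIK3CA* and for its use by mutated or fused receptor kinases.

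The libraries held between 14507228 and 20456341 counts on genes. Levels below are CPM, counts scaled to a library of 1000000 after TMM normalization, which assumes that most genes are equal between libraries. The target of the *FOS* guides had 1008 and 1113 counts in sg*FOS* and between 3528 and 4198 counts in sgScr. In edgeR's quasi-likelihood test with Benjamini-Hochberg adjustment *FOS* fell by 1.48 on the log2 scale (SE 0.044, adjusted p = 2.0e-25). The fit of all 9 libraries, described below, called no gene in that comparison. *FOS* also differed widely between the *LA* libraries, which carried no *FOS* guide, at 334 and 92.7 CPM. It was at 196 to 203 CPM in sgScr and at 68.3 and 74.1 CPM in sg*FOS*. An RNA level does not show whether the gene was edited. The fusion could not be checked through its target, since *ALK* had at most 15 counts in any library. These were 0 in both control libraries, 2 and 15 in *LA* and 0 to 4 in sgScr and sg*FOS*. The paper reports higher *ALK* in fusion cells by RNA-seq, qPCR and immunohistochemistry, and a sequenced breakpoint. All 6 epithelial markers (*KRT8*, *KRT18*, *KRT19*, *KRT7*, *EPCAM* and *CDH1*) were at 1 CPM or more in every library, and their summed level was 13572 and 24650 CPM in control, 7861 and 12947 CPM in *LA*, 6967 to 7406 CPM in sgScr and 8277 and 8503 CPM in sg*FOS*. Most of that sum came from *KRT8*, *KRT18* and *KRT7*, and the 6 markers did not move together. *CDH1* was at 18.5 and 21.9 CPM in control, 98.9 and 101 CPM in *LA* and 68.9 to 70.9 CPM in sgScr and sg*FOS*. *EPCAM* was at 5.62 and 7.85 CPM in control, 3.01 and 4.69 CPM in *LA* and 9.48 to 13.1 CPM in sgScr and sg*FOS*. The part of these differences in the results below was not tested. Of the leukocyte, endothelial and fibroblast markers, only *CD68* and *COL1A1* reached 1 CPM, and *PTPRC* and *CD3E* had no counts. The replicates lay far apart in the control and *LA* groups. The chi-square of their counts, divided by its degrees of freedom, was 134 and 62.3, where sampling noise alone gives about 1. The sgScr and sg*FOS* replicates lay close together, at 1.76 to 2.72. The *LA* and sgScr libraries also differed although both carry the fusion guides. No count was found in either *LA* library for 11 genes that had at least 20 counts in each of the other 7 libraries. Of these 11 genes, 9 lie on chromosome Y in the annotation used. Whether the groups were prepared together is not given in the sources used here.

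The PI3K catalytic subunits differed in level and in how far they moved. *PIK3CA* encodes the p110-alpha subunit, which lies at chromosome 3, 178865902 to 178957881 (GRCh37, plus strand). It was at 5.56 and 10.3 CPM in the control libraries, 22.9 and 16.8 CPM in *LA*, 19.8, 19.97 and 21.2 CPM in sgScr, and 17.3 and 18.0 CPM in sg*FOS*. Both control libraries were below all others, and the order of the other 3 groups lay within the spread of the *LA* pair. *PIK3CB* (chromosome 3, 138371540 to 138553770, minus strand) encodes p110-beta, which also responds to G protein-coupled receptors. It was at 21.9 and 33.2 CPM in control, 58.7 and 49.4 CPM in *LA*, 52.2, 54.8 and 52.8 CPM in sgScr, and 55.7 and 52.6 CPM in sg*FOS*. The ranges of the 3 fusion groups overlapped, and both controls lay below them. *PIK3CD* (chromosome 1, 9689947 to 9789172, plus strand) encodes p110-delta, best known from leukocytes. It was at 15.2 and 7.67 CPM in control, 16.02 and 16.8 CPM in *LA*, 21.03, 17.7 and 19.8 CPM in sgScr, and 20.3 and 23.7 CPM in sg*FOS*. The higher control library came close to the *LA* pair, and the sgScr and sg*FOS* ranges overlapped. The leukocyte marker *PTPRC* had no counts in any library.

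*PIK3R1* (chromosome 5, 67511568 to 67597649, plus strand) encodes p85-alpha, which stabilises the catalytic subunits and docks them on phosphorylated receptors. It was at 4.97 and 10.1 CPM in control, 25.2 and 20.8 CPM in *LA*, 24.5, 24.5 and 24.7 CPM in sgScr, and 29.5 and 25.1 CPM in sg*FOS*. The control libraries were again the lowest, *LA* and sgScr overlapped, and sg*FOS* lay narrowly above sgScr. *AKT1* (chromosome 14, 105235686 to 105262088, minus strand) was at 173 and 151 CPM in control, 160 and 146 CPM in *LA*, 169, 173 and 184 CPM in sgScr, and 162 and 166 CPM in sg*FOS*. AKT1 is the isoform most tied to growth and survival, and its 4 groups lay within a narrow band in which control and *LA* overlapped. *AKT2* (chromosome 19, 40736224 to 40791443, minus strand), the isoform most tied to insulin and glucose handling, was at 171 and 182 CPM in control, 210 and 225 CPM in *LA*, 260, 256 and 277 CPM in sgScr, and 259 and 257 CPM in sg*FOS*. The order was control, *LA*, then sgScr and sg*FOS*, which overlapped.

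*PLCG1* (chromosome 20, 39765600 to 39825441, plus strand) encodes the broadly expressed PLC-gamma. It was at 34.7 and 30.3 CPM in control, 67.3 and 70.3 CPM in *LA*, 56.9, 52.1 and 50.6 CPM in sgScr, and 60.2 and 59.4 CPM in sg*FOS*. It was the only one of the 8 genes whose highest 2 libraries were the *LA* pair, and no 2 groups overlapped. In the comparisons below, each between 2 groups, the groups compared did not overlap for 48.5% to 69.2% of all genes. The share of all genes with every group apart from every other was not counted. *PRKCA* (chromosome 17, 64298731 to 64806861, plus strand) encodes protein kinase C alpha, a kinase activated by calcium and diacylglycerol. It was at 65.6 and 88.4 CPM in control, 149 and 149 CPM in *LA*, 305, 299 and 311 CPM in sgScr, and 311 and 295 CPM in sg*FOS*. *PRKCA* thus fell into 3 tiers, with sgScr and sg*FOS* sharing the highest. In these bulk libraries, fewer cells with a transcript and less of it per cell cannot be told apart.

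**Figure D1:**
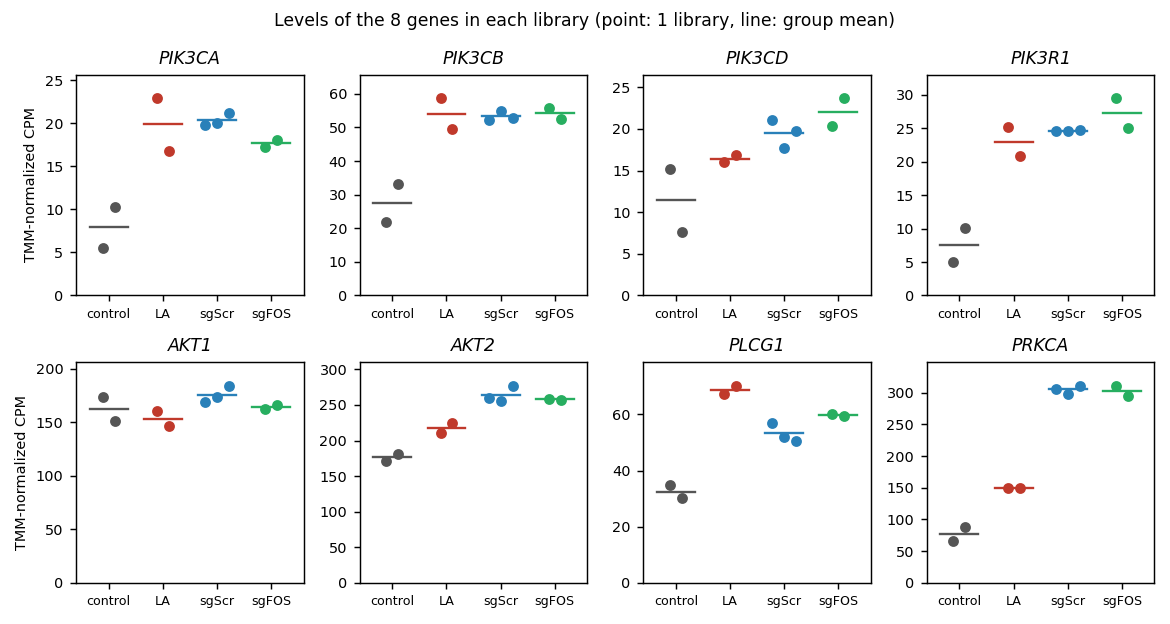
CPM of each of the 8 genes (vertical axis, from 0, a scale of its own in each panel) in the control, LA, sgScr and sgFOS groups, with a point for each library and a line at the group mean. The control libraries lie lowest for every gene but AKT1. Of all genes tested, 63.8% did not overlap between control and LA and 69.2% between control and sgScr, in either direction. PRKCA lies in 3 tiers, with means of 77.0 in control, 149 in LA, and 305 and 303 CPM in sgScr and sgFOS.

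The stretches before the start sites are shown for *PRKCA*, *PIK3R1* and *PLCG1*, the genes with the steps between groups described below, and for *AKT1*, whose levels differed least. Each is the 250 bases before the first start site, from RefSeq on GRCh38.p14, 5′ to 3′ on the strand of the gene. Capitals mark the GC box (GGGCGG or, on the other strand, CCGCCC), which the SP1 family of factors is known to bind. They lie at chr17:66302363-66302612 (plus strand) for *PRKCA*, chr5:68215506-68215755 (plus strand) for *PIK3R1*, chr20:41137293-41137542 (plus strand) for *PLCG1* and chr14:104795749-104795998 (minus strand) for *AKT1*.
PRKCA: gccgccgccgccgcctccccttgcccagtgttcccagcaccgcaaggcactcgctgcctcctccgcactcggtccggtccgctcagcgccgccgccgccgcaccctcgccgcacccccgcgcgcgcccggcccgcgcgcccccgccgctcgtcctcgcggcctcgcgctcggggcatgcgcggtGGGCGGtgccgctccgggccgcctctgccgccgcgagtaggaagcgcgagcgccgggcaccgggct
PIK3R1: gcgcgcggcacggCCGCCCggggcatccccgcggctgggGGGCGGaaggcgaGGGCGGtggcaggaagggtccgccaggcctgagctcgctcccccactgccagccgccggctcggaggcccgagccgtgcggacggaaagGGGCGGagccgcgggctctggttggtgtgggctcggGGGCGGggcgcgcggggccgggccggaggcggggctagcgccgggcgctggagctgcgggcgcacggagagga
PLCG1: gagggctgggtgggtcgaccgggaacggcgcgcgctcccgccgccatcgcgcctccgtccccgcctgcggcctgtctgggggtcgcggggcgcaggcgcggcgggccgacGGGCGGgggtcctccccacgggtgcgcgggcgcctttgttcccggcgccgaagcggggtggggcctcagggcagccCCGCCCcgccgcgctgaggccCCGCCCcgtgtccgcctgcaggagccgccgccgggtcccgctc
AKT1: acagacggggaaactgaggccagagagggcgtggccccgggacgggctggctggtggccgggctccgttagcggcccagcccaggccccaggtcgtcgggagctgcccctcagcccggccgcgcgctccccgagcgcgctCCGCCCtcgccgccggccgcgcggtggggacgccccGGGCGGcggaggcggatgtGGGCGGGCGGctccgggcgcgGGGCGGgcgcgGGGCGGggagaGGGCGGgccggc
The GC box occurs once in the *PRKCA* stretch, 5 times for *PIK3R1*, 3 times for *PLCG1* and 7 times for *AKT1*. With the first 50 bases after the start, these windows are 81.3%, 80.0%, 81.0% and 83.3% G and C. RefSeq lists 16 such windows for the 8 genes, all matched by symbol, and 13 of them hold a GC box, beside 45% of all 35116 windows of the same length. None of the 16 holds the AP-1 core bound by FOS dimers (TGACTCA or, on the other strand, TGAGTCA), which is in 4.95% of all windows. Neither motif contains the other. A match or its absence describes the letters of these windows only.

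Levels of different genes were compared within a library per kilobase of the longest annotated transcript. *PIK3CB* was the main class I catalytic subunit, with 59.2% ± 12.1 (SD, n = 2) of the family in control, 62.4% ± 1.15 (n = 2) in *LA*, 59.5% ± 1.95 (n = 3) in sgScr and 59.2% ± 2.96 (n = 2) in sg*FOS*. *PIK3CD* gave 22.1% to 29.4% and *PIK3CA* 11.4% to 15.4% of the family as group means. *PIK3CG*, the other catalytic subunit and typical of leukocytes, had 2 counts in a single *LA* library and 0 in the other 8, which allows up to 3 counts in each of those 8 (counting error only). The control libraries differed most from each other here, with *PIK3CD* at 40.7% in replicate 1 and 18.1% in replicate 2.

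Per kilobase of the longest transcript, *AKT2* was above *AKT1* in every library, and further above it in the fusion libraries. The ratio of *AKT2* to *AKT1* was 1.58 and 1.93 in control, 2.10 and 2.46 in *LA*, 2.47, 2.37 and 2.41 in sgScr, and 2.55 and 2.47 in sg*FOS*. Both control libraries lay below the other 7. The order of the 2 genes depended on the transcript taken for *AKT1*, whose longest annotated transcript (8396 bp) is listed as a retained intron and whose Ensembl canonical transcript has 2957 bp. With canonical transcripts, a choice made after the levels had been seen, the ratio was 0.556 and 0.680 in control and 0.739 to 0.897 in the other 7 libraries. *AKT1* was then the higher of the pair in all 9 libraries. The order of the libraries could not change, as a new length scales every ratio alike. Correction for length and GC content, described below, can change it. On canonical transcripts, *AKT1* then changed by 0.15 and *AKT2* by -0.12 on the log2 scale in *LA* against control. In sgScr against control these were 0.46 and 0.30. On longest transcripts the pairs were -0.63 and 0.05, and -0.17 and 0.45. The direction of the ratio thus depended on the transcript assumed.

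**Figure D2:**
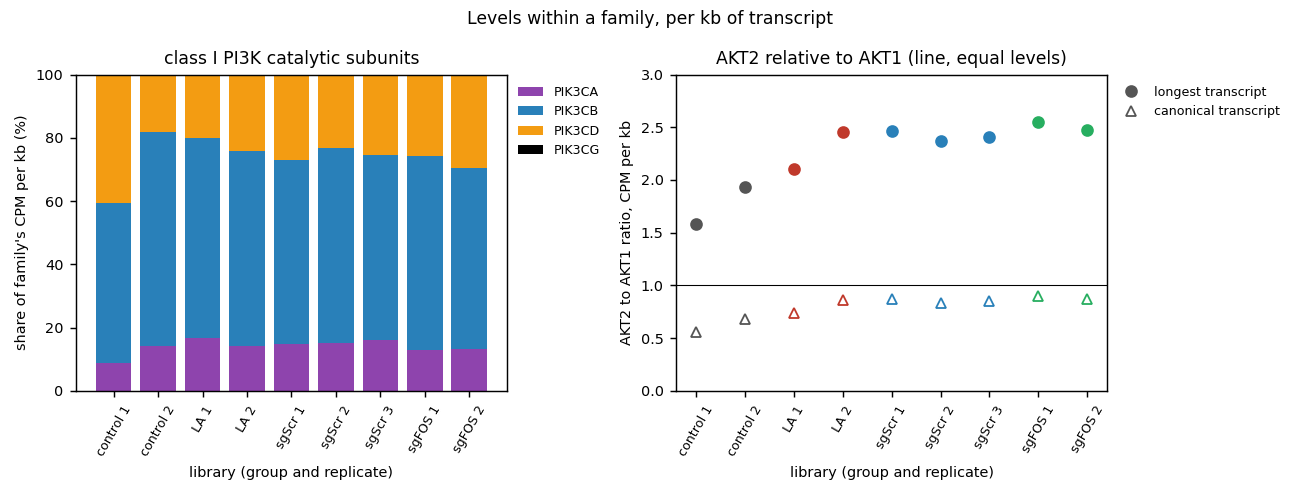
Left, share (vertical axis, percent) of each class I PI3K catalytic subunit in the summed CPM per kilobase of the family, and right, ratio of AKT2 to AKT1 in CPM per kilobase (vertical axis, from 0) on longest (circles) or canonical (triangles) transcripts, in each of the 9 libraries. PIK3CB is the largest share in all 9 libraries and PIK3CG is not visible, while the AKT ratio is lowest in the 2 control libraries and lies above 1 with longest and below 1 with canonical transcripts.

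Per kilobase of the longest transcript, *AKT2* stood highest of the 8 genes in every group, with group means of 33.6, 41.4, 50.4 and 49.1 CPM per kilobase in control, *LA*, sgScr and sg*FOS*. *PRKCA* ran from 8.59 to 34.0 CPM per kilobase and *AKT1* from 18.2 to 20.9, so that *PRKCA* lay below *AKT1* in control and *LA* and above it in sgScr and sg*FOS*. Both orders rest on the retained intron of *AKT1*. With canonical transcripts *AKT1* was at 54.7, 51.8, 59.3 and 55.6 CPM per kilobase in the 4 groups, above *AKT2* and *PRKCA* in each. *PLCG1* (4.39 to 9.31) and *PIK3CB* (4.40 to 8.65) were next. *PIK3CD*, *PIK3R1* and *PIK3CA* were the lowest, between 0.854 and 4.07 CPM per kilobase. The ratio of *PIK3R1* to all class I catalytic subunits per kilobase was 0.103 and 0.186 in the control libraries and 0.232 to 0.291 in the others. The ratio of *PRKCA* to *PLCG1* per kilobase was 1.56 and 2.41 in control, 1.83 and 1.75 in *LA*, 4.42, 4.73 and 5.08 in sgScr, and 4.26 and 4.09 in sg*FOS*. Control and *LA* overlapped in that ratio, and sgScr and sg*FOS* stood above both.

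The first question of the study was what the fusion changes. Of the 8 genes, only *PIK3R1* passed the test in *LA* against control, with 2.98-fold more in *LA* cells (log2 fold change 1.57, SE 0.48, adjusted p = 0.0232, edgeR's quasi-likelihood test with Benjamini-Hochberg adjustment over 14425 genes). In the same test 19.5% of all genes were called, 9.57% as higher. The other class I subunits did not pass, with log2 fold changes of 1.298 for *PIK3CA* (SE 0.48, adjusted p = 0.0566), 0.94 for *PIK3CB* (SE 0.42, adjusted p = 0.111) and 0.50 for *PIK3CD* (SE 0.46, adjusted p = 0.471). *PLCG1* and *PRKCA* also missed the threshold, at 1.06 (SE 0.40, adjusted p = 0.0619) and 0.93 (SE 0.40, adjusted p = 0.0994). For *AKT1* the difference was -0.10 with a 95% interval from -0.91 to 0.71, and for *AKT2* it was 0.28 with an interval from -0.54 to 1.09. These intervals are wide, as the control and *LA* pairs gave a biological coefficient of variation of 0.329. The median over the 8 genes was 0.94, beside 0.044 over all genes tested. The libraries of both groups did not overlap for 7 of the 8 genes, and for 63.8% of all genes.

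The size of these differences went with transcript length. Across the 14158 genes with a known length, the fold change of *LA* against control had a Spearman correlation of 0.574 with length, and with the genes in 10 equal groups by length its median ran from -1.26 in the shortest to 1.06 in the longest. Genes are not independent replicates, so no p-value is given. Of the 8 genes, 7 have canonical transcripts of 5250 to 9259 bp, and *AKT1*, the single one with a negative difference, has the shortest. Length also went with the difference between both control libraries, at a Spearman correlation of 0.363. With each library corrected for length and GC content, no member was called, beside 10.0% of all genes. An unadjusted p under 0.05 was left for 1 of the 8 (*PIK3R1*), beside 3998 of all 14158 genes. The corrected log2 fold changes were 0.75 for *PIK3R1* (adjusted p = 0.144), 0.34 for *PLCG1*, 0.28 for *PIK3CA* and 0.027 for *PRKCA*, with a median of 0.16 over the 8 genes. The directions for *AKT1* (0.15) and *AKT2* (-0.12) turned under the correction, and on longest transcripts they were -0.63 and 0.050. Scaling by library size alone, which moves the median of all genes to 0.33 here and to 0.20 in sgScr against control, also turned *AKT1* to 0.19.

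**Figure D3:**
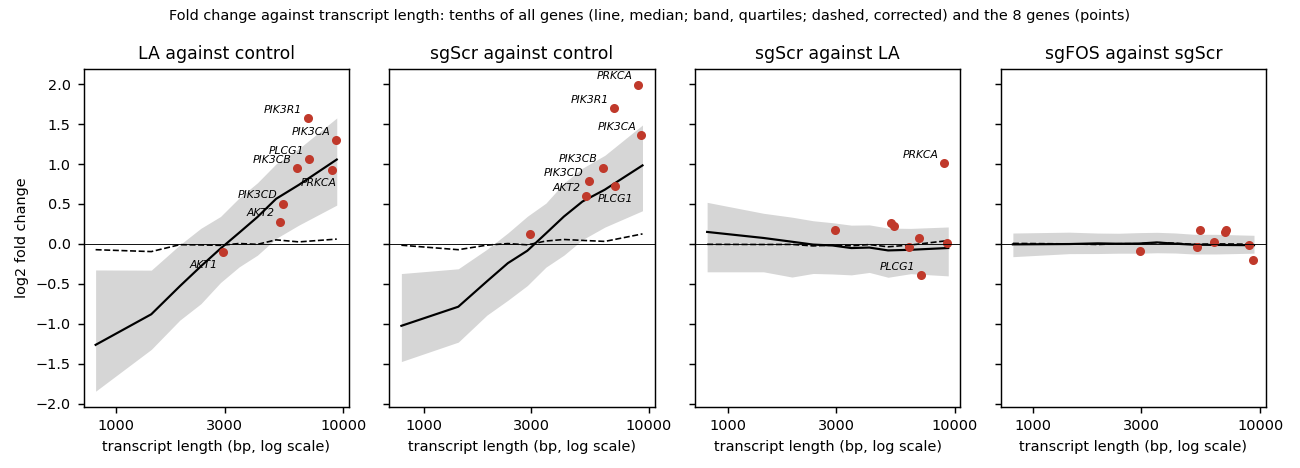
Log2 fold change (vertical axis) against canonical transcript length (horizontal axis, log scale) in 4 comparisons, with the median and quartiles over 10 equal groups of genes (line and grey band), the median after correction (dashed) and the 8 genes (red points). The line climbs from -1.26 to 1.06 in LA against control and is flat in sgFOS against sgScr, and most of the 8 genes lie at the long end.

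The *PIK3R1* call was lost without control replicate 1 or without either *LA* library. Its log2 fold change was 1.11 without control replicate 1 (adjusted p = 0.109), 1.39 without *LA* replicate 1 (adjusted p = 0.268) and 1.73 without *LA* replicate 2 (adjusted p = 0.158), all from edgeR's quasi-likelihood test. With an *LA* library left out few genes were called at all, 2.87% of all genes without replicate 1 and 1.71% without replicate 2. With the lone library assumed to vary like the other group, leaving out control replicate 2 gave 2.12 (adjusted p = 0.00380), and *PIK3CA*, *PIK3CB* and *PRKCA* were then called as well, beside 15.8% of all genes as higher. A single fit of all 9 libraries pools the spread of the looser control and *LA* groups with that of the tighter sgScr and sg*FOS* groups. Its biological coefficient of variation was 0.206, against 0.329 with the control and *LA* libraries alone. That fit called 5 of the 8 genes as higher (*PIK3CA*, *PIK3CB*, *PIK3R1*, *PLCG1* and *PRKCA*), beside 23.9% of all genes. DESeq2 called *PIK3CA*, *PIK3R1* and *PLCG1*, beside 9.98% of all genes as higher. At the threshold given in the methods of the study (absolute log2 fold change over 0.5 and unadjusted p under 0.05), the same 5 genes as in the 9-library fit passed in edgeR, beside 17.4% of all genes.

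The sgScr libraries gave another set of fusion cells to set against control, though against the same 2 control libraries, so the comparisons are not independent. Here 6 of the 8 genes were higher and none was lower, beside 19.8% of 14482 genes called as higher and 41.5% called in either direction. *PRKCA* was 3.98-fold higher (log2 fold change 1.99, SE 0.19, adjusted p = 0.00436, edgeR's quasi-likelihood test with Benjamini-Hochberg adjustment). *PIK3R1* (1.70, SE 0.32, adjusted p = 0.0120) and *PIK3CA* (1.36, SE 0.29, adjusted p = 0.0163) followed. Smaller increases were called for *PIK3CB* (0.96), *PLCG1* (0.72) and *AKT2* (0.60). *PIK3CD* (0.79, SE 0.30, adjusted p = 0.0758) and *AKT1* (0.13, SE 0.14, adjusted p = 0.483) did not pass. Fold changes again went with length, at a Spearman correlation of 0.590, and the median ran from -1.02 in the shortest group of genes to 0.98 in the longest. After the correction *PRKCA* (1.23, adjusted p = 0.00158), *PIK3R1* (0.91, adjusted p = 0.00721), *PIK3CA* (0.41, adjusted p = 0.0455) and *AKT1* (0.46, adjusted p = 0.0366) were called, beside 18.8% of all genes as higher. The set of calls depended on the transcript assumed. With the correction on longest annotated transcripts *AKT1* was at -0.17 (adjusted p = 0.334) and was not called. *PIK3CB* (0.32, adjusted p = 0.0355) and *PIK3CD* (0.66, adjusted p = 0.0364) were called there, beside 20.5% of all genes as higher. *PRKCA*, *PIK3R1* and *PIK3CA* were called with either choice.

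The number of calls in that comparison depended on the sgScr libraries. Without sgScr replicate 1 only *PRKCA* was called (1.999, adjusted p = 0.0499), beside 0.826% of all genes as higher, and without replicate 2 (2.01, adjusted p = 0.0523) or replicate 3 (1.97, adjusted p = 0.0541) none was, in edgeR's quasi-likelihood test. In those fits 6 of the 8 genes still had an unadjusted p under 0.05. So did 5410 of all 14162 genes without replicate 1, 5366 of 14204 without replicate 2 and 5557 of 14386 without replicate 3. Of all genes tested, 3 were called without replicate 2 and 3 without replicate 3, against 6009 with all libraries. The sizes hardly moved, with *PIK3R1* between 1.69 and 1.71 and *PIK3CA* between 1.33 and 1.39. Leaving out a control library moved the sizes instead. *PIK3R1* was 1.28 without control replicate 1 and 2.31 without control replicate 2, and *PIK3CA* was 0.98 and 1.88. Then 8 of the 8 genes were called as higher without control replicate 1, beside 34.6% of all genes, and 7 without control replicate 2, beside 40.5%. A lone control library is assumed to vary as the sgScr libraries do.

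**Figure D4:**
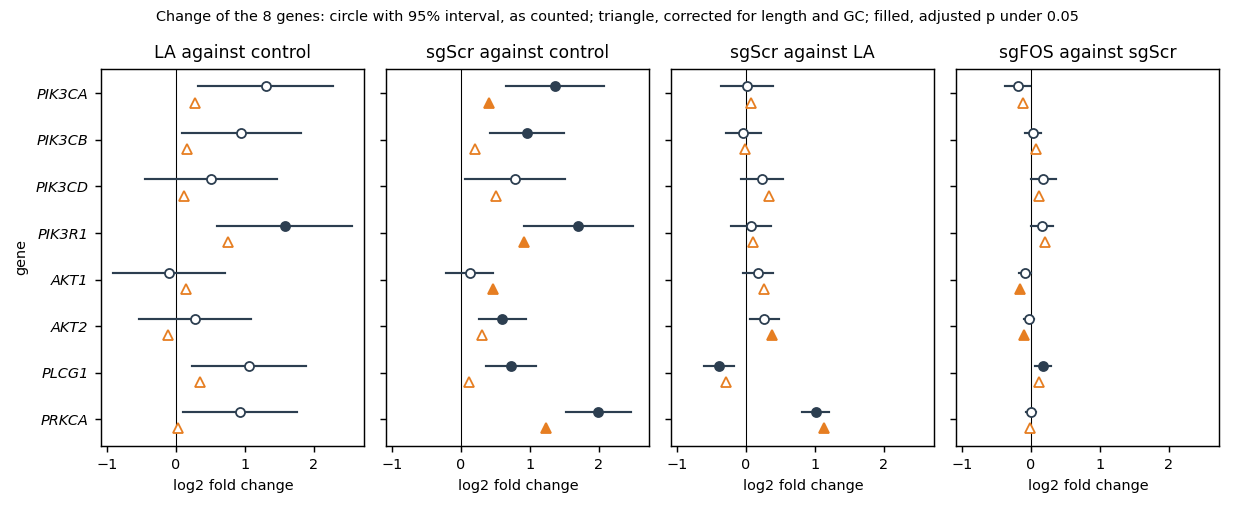
Log2 fold change (horizontal axis) of the 8 genes in 4 comparisons, as counted with its 95% interval (circles) and after correction for length and GC content (triangles), filled where the adjusted p is under 0.05. PRKCA is the only one of the 8 genes with both symbols filled in sgScr against control and in sgScr against LA, and in sgFOS against sgScr all values lie within 0.21 of 0.

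The *LA* and sgScr groups both carry the fusion guides, and setting them against each other shows how far the 2 sets of fusion libraries lay apart. *PRKCA* was 2.01-fold higher in sgScr than in *LA* (log2 fold change 1.01, SE 0.079, adjusted p = 0.00183, edgeR's quasi-likelihood test with Benjamini-Hochberg adjustment). *PLCG1* was lower in sgScr (-0.39, SE 0.092, adjusted p = 0.0309). The other 6 genes did not pass, beside 22.9% of all 14521 genes called, 10.6% as higher and 12.3% as lower. Among the 6, *AKT2* came closest at 0.26 (SE 0.086, adjusted p = 0.0746), and the intervals were -0.36 to 0.39 for *PIK3CA*, -0.29 to 0.21 for *PIK3CB* and -0.21 to 0.37 for *PIK3R1*. Length played little part here, with a Spearman correlation of -0.103, and after the correction *PRKCA* was at 1.14 (adjusted p = 0.000605). *PLCG1* was then at -0.29 (adjusted p = 0.0561), and *AKT2* was called at 0.38 (adjusted p = 0.0230). Both were read against 28.6% of all genes called in that fit. *PRKCA* was called with every library left out in turn, at 0.99 to 1.03. *PLCG1* lost its call without sgScr replicate 1 (-0.44, adjusted p = 0.105), replicate 2 (-0.38, adjusted p = 0.157) or replicate 3 (-0.36, adjusted p = 0.150). In those 3 fits 3.71%, 3.17% and 2.69% of all genes were called, against 22.9% with all libraries. With *LA* replicate 1 left out, 6 of the 8 genes were called, beside 65.1% of all genes. The *PRKCA* step lay between 2 groups that share the fusion guides, and these groups also differ in the genes with no count in *LA*, most of them on chromosome Y. The clone, the scramble guide and the preparation cannot be told apart.

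The last comparison asked what guides against *FOS* change in fusion cells. Of the 8 genes, only *PLCG1* passed, with 1.13-fold more in sg*FOS* than in sgScr (log2 fold change 0.17, SE 0.056, adjusted p = 0.0240, edgeR's quasi-likelihood test with Benjamini-Hochberg adjustment). In that test 22.7% of 14196 genes were called, 12.2% as higher. The replicates were tight, with a biological coefficient of variation of 0.0296, which makes the intervals of the other 7 genes narrow. The 95% interval ran from -0.080 to 0.066 for *PRKCA*, from -0.11 to 0.044 for *AKT2*, from -0.085 to 0.14 for *PIK3CB* and from -0.17 to -0.0061 for *AKT1*. The lowly expressed subunits had wider intervals, from -0.38 to -0.014 for *PIK3CA*, from -0.0063 to 0.36 for *PIK3CD* and from -0.0069 to 0.31 for *PIK3R1*. No interval of the 8 genes thus reached beyond -0.38 or 0.36 on the log2 scale, whereas *FOS* itself fell by 1.48. These bounds hold for that fit. In the 9-library fit, with a biological coefficient of variation of 0.206, the standard errors of the 8 genes were 0.13 to 0.26, so the intervals are wider (*PIK3CA* at -0.20, SE 0.25). The median over the 8 genes was 0.0099, beside -0.0015 over all genes.

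The *PLCG1* call was kept under 6 of 16 alternatives, among them all 3 other normalizations, both other filters on low counts and the fit without sgScr replicate 1 (0.22, adjusted p = 0.00400). It was lost with DESeq2 (0.17, adjusted p = 0.148) and after the length and GC correction (0.12, adjusted p = 0.112). It was also lost without sgScr replicate 2 (0.16, adjusted p = 0.0908), sgScr replicate 3 (0.14, adjusted p = 0.0632), sg*FOS* replicate 1 (0.16, adjusted p = 0.155) or sg*FOS* replicate 2 (0.18, adjusted p = 0.0976), all in edgeR's quasi-likelihood test. The 9-library fit called none of 14849 genes in this comparison in edgeR (444 had an unadjusted p under 0.05), and *PLCG1* was at 0.17 there too. Its direction was the same under all 16 alternatives, at 0.089 to 0.22. After the correction *AKT1* (-0.17, adjusted p = 0.000709) and *AKT2* (-0.10, adjusted p = 0.0273) were called as lower instead, beside 9.77% of all genes. Fold changes in this comparison were flat with length (Spearman correlation -0.0062) but rose with GC content (0.257), and the canonical transcripts of *AKT1* and *AKT2* are 61.2% and 58.0% GC.

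The wider pathway was described with 11 lists of 131 genes in all, of which 123 are not among the 8. Counts by list include the members. In *LA* against control, 115 of the 123 were tested, and 24 were higher and 4 lower, with a median log2 fold change of 0.37 beside 0.044 over all genes. Of all genes 9.57% were higher and 9.94% lower. After the length and GC correction 5 of the 115 were higher and 5 lower, beside 5.06% and 4.94% of all genes, with a median of 0.012 beside -0.0080 over all genes. Of the genes that led their lists upwards, the furthest were *SGK1*, a kinase related to AKT (2.41), *PDPK1*, which phosphorylates AKT (2.28), *PLCE1*, a phospholipase C (2.10), and *IRS1*, the adaptor that links the insulin receptor to PI3K (2.02). *PHLPP1*, a phosphatase of AKT, was 1.97 higher, *DGKH*, which consumes diacylglycerol, 1.72 higher and *PIK3C2A*, a class II PI3K, 1.65 higher. *PIP5K1A*, which makes PIP2, was 1.48 higher and *PRKCE*, another protein kinase C, 1.38 higher. The changes downwards were in *PLCB1*, a phospholipase C (-4.88), *BAD*, a death-promoting AKT substrate (-2.49), *EIF4EBP1*, the translation repressor that mTORC1 inactivates (-1.89), and *PRR5*, an mTORC2 subunit (-1.38). All these log2 fold changes had adjusted p-values of 0.0396 or lower in edgeR's quasi-likelihood test. Of these genes, *IRS1*, *PIP5K1A*, *PHLPP1*, *PDPK1*, *SGK1* and *PLCB1* were also called after the correction. The other 7 were not, among them *BAD* (-0.86, adjusted p = 0.0523) and *EIF4EBP1* (-0.35, adjusted p = 0.347). *PLCB1* rests on few counts in *LA*, with 2 and 5 there, 56 and 144 in control and 115 to 188 in the other 5 libraries.

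By list and beside the same 9.57% of all genes as higher, the adaptors had 4 of 9 genes higher, the class II and III PI3K genes 2 of 4, the phosphatases 3 of 11, AKT and its kinases 3 of 9 with 1 lower, and the other AKT substrates 4 of 13 with 1 lower. The mTORC1 arm had none of 13 higher and 1 lower. In the protein kinase C list 2 of 13 were higher, and in the phospholipase C list 1 of 11 was higher and 1 lower. The IP3, calcium and diacylglycerol arm had 4 of 25 higher, the phosphoinositide kinases 1 of 9, and the class I subunits 1 of 6. After the correction at most 1 gene of any list was higher. That was 1 each of the adaptors, the phosphatases, AKT and its kinases, the other AKT substrates and the phosphoinositide kinases, and none of the other lists. The phosphatases had 2 lower, and the mTORC1 arm, the phospholipase C list and the IP3, calcium and diacylglycerol arm 1 each.

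**Figure D5:**
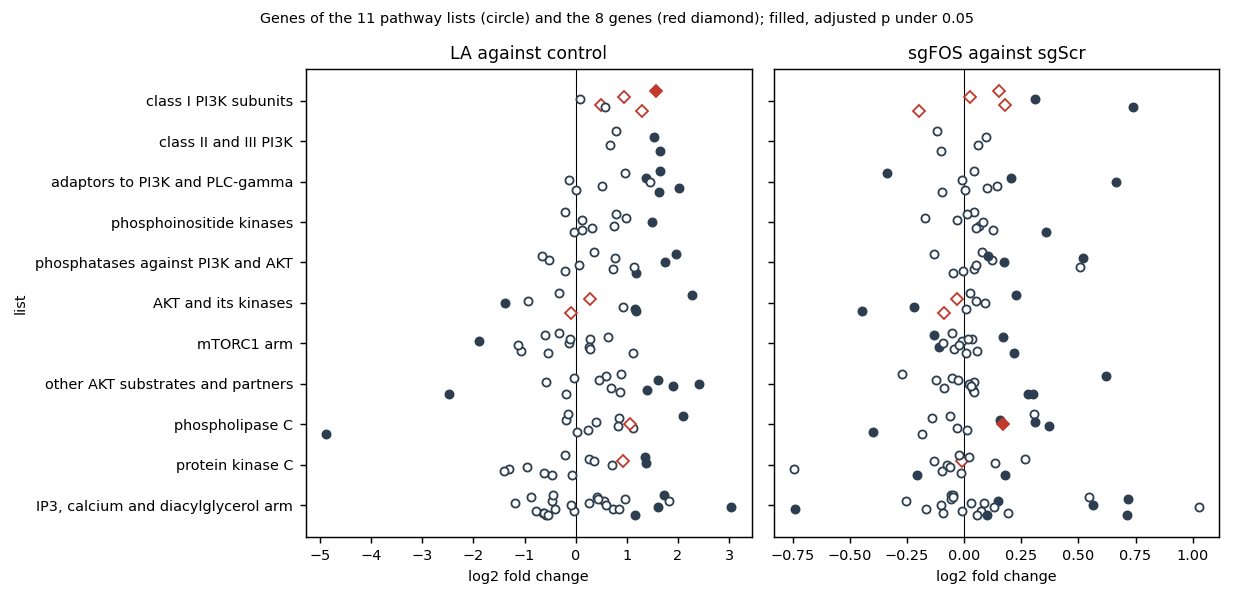
Log2 fold change (horizontal axis, a scale of its own in each panel) of the tested genes of 11 pathway lists in LA against control and in sgFOS against sgScr, with the 8 genes as red diamonds and filled symbols for an adjusted p under 0.05. PLCB1 is the point at -4.88 on the left, and the values on the right lie between -0.75 and 1.03.

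In sg*FOS* against sgScr, 113 of the 123 genes were tested, and 23 were higher and 8 lower, with a median of 0.029 beside -0.0015. Of all genes 12.2% were higher and 10.5% lower. After the correction 18 of the 113 were higher and 8 lower, beside 11.3% and 9.77% of all genes. The changes were small. *PIK3R3*, a PI3K regulatory subunit, was higher by 0.74 (SE 0.17, adjusted p = 0.00151), *DGKA*, a diacylglycerol kinase, by 0.71 (SE 0.091, adjusted p = 1.0e-07) and *MDM2*, a ubiquitin ligase that AKT phosphorylates, by 0.62 (SE 0.042, adjusted p = 1.4e-14), in edgeR's quasi-likelihood test. *INPP4B*, a phosphoinositide phosphatase, was higher by 0.52, *PLCL2*, a phospholipase C-like protein, by 0.37 and *PI4K2A*, a phosphoinositide kinase, by 0.36. *NFATC2*, a calcium-regulated transcription factor, was lower (-0.74, adjusted p = 0.000165), as were *RICTOR*, the core of mTORC2 (-0.45, adjusted p = 1.1e-09), *PLCG2*, the PLC-gamma of blood cells (-0.40, adjusted p = 0.00406), and *IRS2*, an adaptor of the insulin receptor (-0.34, adjusted p = 6.0e-08). *PDPK1* (0.23), *AKT1S1*, an mTORC1 inhibitor (0.22), *FRS2*, an adaptor of FGF receptors (0.21), and *PRKD2* (0.18) were slightly higher. *MARCKS*, a protein kinase C substrate (-0.20), and *RHEB*, which activates mTORC1 (-0.13), were slightly lower. Of the changes named in this comparison, the one in *PRKD2* was not called after the correction (adjusted p = 0.234). By list, 2 of 6 class I subunits, 4 of 11 phospholipases C, 3 of 11 phosphatases, 3 of 13 other AKT substrates and 5 of 23 genes of the IP3, calcium and diacylglycerol arm were higher. The phospholipase C list and the IP3, calcium and diacylglycerol arm each had 1 lower. AKT and its kinases had 1 higher and 2 lower of 9, the mTORC1 arm 2 and 2 of 13, the adaptors 2 and 1 of 9 and protein kinase C 1 and 1 of 13. The phosphoinositide kinases had 1 of 9 higher and the class II and III PI3K genes none of 4.

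Between the 2 sets of fusion libraries, 13 of 113 genes were higher in sgScr and 21 lower, with a median of -0.075 beside -0.016 over all genes. Of all genes 10.6% were higher and 12.3% lower. After the correction 23 were higher and 22 lower, beside 13.7% and 14.9% of all genes, with a median of -0.034. *PLCB1* was higher by 5.40 in sgScr (SE 0.32, adjusted p = 0.000971, edgeR's quasi-likelihood test), *PRKD1*, a protein kinase D, by 1.56 (adjusted p = 0.00472) and *NFATC2* by 1.35 (adjusted p = 0.00940). *EIF4B*, a translation factor, was 0.72 higher and *SHC1*, an adaptor, 0.58 higher. *PLCE1* (-1.32), *RASGRP1*, which diacylglycerol recruits (-1.25), *SGK1* (-1.20), *PIK3AP1* (-1.01) and *PHLPP1* (-0.80) were lower in sgScr. Smaller decreases were called for *PRKCE* (-0.56), *TSC2*, the mTORC1 repressor (-0.50), and *PI4K2B* (-0.46). In the protein kinase C list, which holds *PRKCA*, 4 of 13 genes were higher in sgScr and 1, *PRKCE*, was lower.

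In sgScr against control, which shares its control libraries with *LA* against control, 39 of 115 genes were higher and 14 lower, with a median of 0.40 beside 0.019 over all genes. Of all genes 19.8% were higher and 21.7% lower. *CBL*, an adaptor and ubiquitin ligase (2.03), *PDPK1* (1.97), *ITPR1*, an IP3 receptor (1.68), and *PIP5K1A* (1.51) were among the genes higher. *PIK3C2A* (1.45), *FOXO4*, a transcription factor that AKT restrains (1.45), *PHLPP2* (1.41), *PLCH1* (1.32) and *EIF4B* (1.03) were higher too. *BAD* (-2.43), *PRR5* (-1.33), *TBC1D7*, a partner of the TSC complex (-1.30), *ORAI1*, a calcium channel (-0.98), and *PLCD4* (-0.92) were lower. After the correction 29 were higher and 16 lower, beside 18.8% and 18.7% of all genes, with a median of 0.050, and the changes of *PRR5* (adjusted p = 0.229) and *ORAI1* (adjusted p = 0.463) were not called, the latter at 0.15.

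The genes most like each member were found by Pearson correlation of log2 CPM over the 9 libraries, among 11899 other genes whose mean count was 50 or more. The points share the same 4 groups, the same libraries and the same length trend, so the correlations are descriptions. *PIK3CA* was most like *MEGF9*, *PHF3* and *MIB1* (r = 0.997 for each), and *PIK3CB* most like *GOLGA4* (0.999), *TNPO1* and *ICE1* (0.998 each). *PIK3R1* was most like *CANX*, *BDP1* and *LAMB1* (0.995 to 0.996), and *PLCG1* most like *USP36*, *AAK1* and *SH3PXD2B* (0.991 to 0.992). *PRKCA* was most like *KANK2* (0.997), *SLFN5* (0.994) and *LONRF2* (0.993), and *AKT2* most like *UBASH3B*, *BTN2A2* and *RNASEH1* (0.987 to 0.989). *PIK3CD* had looser neighbours in *CHD3*, *UBE2Z* and *FAM53B* (0.974 to 0.975), and *AKT1* the loosest in *SLFN13* (0.945), *MAP1A* (0.923) and *ZNF395* (0.917). Among the members, *PIK3CB* with *PIK3R1* (0.992), *AKT2* with *PRKCA* (0.986) and *PIK3CA* with *PIK3CB* (0.985) were the closest pairs. *AKT1* stood apart, with r between -0.0954 and 0.501 with the other 7 genes.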

How the data were processed

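RNA from 9 A549 libraries had been sequenced as stranded, paired-end polyA mRNA. The authors deposited one table of raw read counts per gene, which per the labels' processing notes goes with STAR 2.7.10b, hg19 and DESeq2 1.26.0. The counting program, annotation and strand setting are not given in the sources used here. Columns were matched to samples by title, and groups were taken from the labels. The 8 genes and the pathway lists were chosen with earlier results of these data known.

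The deposited counts went through filterByExpr, TMM normalization and the two-sided quasi-likelihood test of edgeR (version 4.0.16, R 4.3.3), fitted in each comparison on its own libraries. Genes were called at an adjusted p under 0.05 (Benjamini-Hochberg over all genes tested). Log2 CPM used a prior count of 2. Length and GC content were corrected by a loess curve in each library (span 0.5, Ensembl canonical transcripts), entered as an offset, with 24688 of 26364 names matched to a length. DESeq2 1.42.0, other scalings and filters, a fit of all libraries, a replicate block, stricter thresholds and leaving out each library were alternatives. The fits were also run on simulated data, with and without a length trend between groups. Replicates of a group shared that trend, so a trend between replicates, as in the control pair, was not tested. Named pathway genes are, per list and comparison, the called gene with the largest change in each direction, among genes with a mean of 50 counts or more. Libraries of 14507228 to 20456341 counts limit the precision of the lowest genes, *PIK3CA*, *PIK3CD* and *PIK3R1*. Some genes of the lists and markers are not reported here by name. Pathway activity, which is set by phosphorylation, was not measured.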

Additional observations from a re-analysis of the deposited data

How the results depend on the processing

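Of 512 fold changes of the 8 genes under alternatives, 492 kept their direction and 20 turned. In *LA* against control *AKT1* turned to 0.19 with library size alone, 0.15 with the length and GC correction and 0.14 with the replicate block added, and *AKT2* to -0.12 and -0.10 with the last pair. In sg*FOS* against sgScr *AKT2* turned to 0.0029 and *PRKCA* to 0.0079 with the replicate block, *PRKCA* to 0.0021 with block and correction, *PIK3CB* to -0.015 without sg*FOS* replicate 1, *AKT2* to 0.0024 and *PRKCA* to 0.0076 without sgScr replicate 3, and *PRKCA* to 0.029 without sg*FOS* replicate 2. With a library left out these ran from -0.015 to 0.065 for *PIK3CB*, -0.053 to 0.0024 for *AKT2* and -0.047 to 0.029 for *PRKCA*. In sgScr against *LA* *PIK3CA* turned to -0.037 with library size alone, -0.0077 with a mean filter of 50 counts, -0.0029 with the block, -0.19 without *LA* replicate 2 and -0.017 without sgScr replicate 3, *PIK3CB* to 0.10 without *LA* replicate 1 and *PIK3R1* to -0.055 without *LA* replicate 2. The ranges there were -0.19 to 0.27, -0.16 to 0.10 and -0.055 to 0.24. In sgScr against control *AKT1* turned to -0.17 with the correction on longest transcripts. No gene that turned was called as counted.

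The 2814 calls in *LA* against control became 6799 in the 9-library fit, 1519 with the replicate block, 1417 with the correction, 1725 with it on longest transcripts, 4977 at the study's threshold, 1132 at 0.01 and 253 to 5078 with a library left out. Members called were 1 as counted, 3 with DESeq2 or the mean filter, 2 with library size alone or no filter, 5 in the 9-library fit, with the crossed block or at the study's threshold, 0 with any correction or at 0.01, and 0 to 4 with a library left out. In sg*FOS* against sgScr 3221 calls became 1831 with DESeq2, 0 in the 9-library fit (edgeR, with 444 genes at an unadjusted p under 0.05), 818 at the study's threshold, 2023 at 0.01 and 1916 to 3518 with a library left out. Members called there were 0 with DESeq2, the 9-library fit, the block, the study's threshold or 0.01, 2 with either correction, and 0 to 1 with a library left out. In sgScr against *LA* 3327 calls became 1436 in the 9-library fit, 1230 with the block, 2139 with block and correction, 815 at 0.01 and 389 to 9926 with a library left out, and members called were 1 in each of these and at the study's threshold, and 1 to 6 with a library left out. In sgScr against control 6009 calls became 3480 with the block, 3092 with block and correction, 1707 at 0.01 and 3 to 11715 with a library left out, and members called were 3, 2, 1 and 0 to 8. The causes were not tested.

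The numbers were no evidence of pairing, since the groups share only 2, and deviations of same-numbered libraries correlated at -0.216 in *LA* against control and at -0.119 to 0.0583 elsewhere. The crossed block, longest-transcript correction and canonical lengths were chosen after seeing the data.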
